A study of Mus musculus with 8 samples.

Results

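Progression of a cell from the end of DNA replication through division needs a set of genes, many of which are switched on together. The 54 genes described here belong to that G2 and mitosis set: they are a list given by gene symbol, and all 54 were found among the 50462 gene identifiers of the count table. They were measured by RNA-seq in cartilage caps dissected from the medial side of the knee of male wild-type C57Bl/6J mice, with 1 library per mouse. Naive mice (n = 4) were taken without surgery at day 0, when they were 11 weeks old. DMM mice (n = 4) had the medial meniscus destabilised by surgery, which cuts a ligament holding the meniscus and is used to model post-traumatic osteoarthritis, and were taken at day 42, when they were 17 weeks old. No sham-operated mice were analysed here, so surgery and the greater age of the DMM mice cannot be told apart.

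In G2 and mitosis, cyclin B and its kinase Cdk1 switch on the machinery of division: chromosomes condense, kinetochores attach them to a microtubule spindle, a checkpoint holds the cell until all are attached, and the anaphase-promoting complex then releases the sister chromatids before the cell is cut apart. The transcripts of many of these genes are low in resting cells and peak late in the cycle, and a set of them (Mki67, Top2a and others) is used to mark dividing cells. Adult articular chondrocytes rarely divide, whereas the blood-forming cells of the marrow under the joint surface divide constantly.

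Many members share short sequences at their starts, which the list itself did not use. Many late cell cycle promoters carry a cell cycle genes homology region (CHR), bound by the DREAM and MuvB complexes that repress these genes in resting cells and activate them in G2, with CCAAT boxes, bound by NF-Y, upstream of it. Promoter windows of 300 bases (250 before to 50 after the annotated start, RefSeq, GRCm38.p6) were present for 47 of the 54 members, in 52 windows. The stretch from 120 bases before to 30 after the start is shown for 6 members called lower in DMM libraries, from 5 roles, and for Psrc1, which did not pass the test. Capitals mark every CHR (TTTGAA or TTCGAA) and every CCAAT on either strand, read 5′ to 3′ along the gene.
Cdk1 (chr10:69352883-69353032, minus strand): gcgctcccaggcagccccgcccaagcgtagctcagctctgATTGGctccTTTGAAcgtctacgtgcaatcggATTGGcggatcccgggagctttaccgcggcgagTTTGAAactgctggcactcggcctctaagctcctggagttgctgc
Ccnb2 (chr9:70421525-70421674, minus strand): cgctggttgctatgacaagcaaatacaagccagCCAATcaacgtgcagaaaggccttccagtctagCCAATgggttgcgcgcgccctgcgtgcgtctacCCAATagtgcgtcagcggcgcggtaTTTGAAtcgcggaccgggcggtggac
Top2a (chr11:99024160-99024309, minus strand): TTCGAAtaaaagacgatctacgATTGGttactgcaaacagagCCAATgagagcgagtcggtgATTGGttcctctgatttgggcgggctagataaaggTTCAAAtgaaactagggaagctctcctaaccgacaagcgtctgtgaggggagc
Cenpf (chr1:189688057-189688206, minus strand): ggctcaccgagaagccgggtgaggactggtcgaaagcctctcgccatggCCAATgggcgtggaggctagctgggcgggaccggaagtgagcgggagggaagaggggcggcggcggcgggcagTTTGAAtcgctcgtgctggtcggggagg
Cdca8 (chr4:124936888-124937037, minus strand): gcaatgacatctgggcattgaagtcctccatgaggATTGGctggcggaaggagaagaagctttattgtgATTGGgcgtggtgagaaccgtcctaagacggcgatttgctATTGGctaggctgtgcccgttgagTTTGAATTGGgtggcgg
Cdc20 (chr4:118437314-118437463, minus strand): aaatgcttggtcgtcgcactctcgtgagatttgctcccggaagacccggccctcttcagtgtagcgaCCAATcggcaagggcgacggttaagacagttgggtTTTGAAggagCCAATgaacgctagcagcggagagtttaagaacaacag
Psrc1 (chr3:108383684-108383833, plus strand): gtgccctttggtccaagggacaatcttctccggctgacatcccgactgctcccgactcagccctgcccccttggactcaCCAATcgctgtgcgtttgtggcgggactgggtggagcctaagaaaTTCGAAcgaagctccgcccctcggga

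In each of these stretches a CHR began between bases -23 (Top2a) and 14 (Cdca8) of the start, and CCAAT matches lay mostly upstream of it. The Cdk1 stretch held a CHR at -15 and another at -71, with CCAAT matches at -80 and -48. In Ccnb2, 3 CCAAT matches stood at -87, -54 and -21, and the CHR began at base 5 of the transcript. In Cdca8 the CHR at base 14 shared its last base with a CCAAT match at base 19, the only overlap of both motifs among the members' windows. Psrc1 carried the CHR as TTCGAA at base 5 and a CCAAT match at -41, so both motifs also stood at the start of a member whose change did not pass the test.

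A CHR was found in 38 of the 52 member windows (73.1%), compared with 19.2% of all 32851 windows of the same length. CCAAT was found in 39 (75%), compared with 37.4%, and both motifs in 31 (59.6%), compared with 7.52%. A CHR that began within 100 bases before the start or after it was present in 61.5% of member windows and 8.59% of all windows. At least 2 CCAAT matches were present in 57.7% and 11.7%. The motifs were also frequent in the 82 windows of other G2 and mitosis genes, a list described below. There a CHR was found in 54.9%, CCAAT in 65.9%, both in 39% and a CHR in that stretch near the start in 43.9%. Among the windows of the S phase genes, a companion list of 43 genes for the phase when DNA is replicated, CHR matches were at 17.1% and CCAAT matches at 65.7%. Among members, the CHR was present in 29 of the 36 windows of genes called lower (80.6%), which belong to 35 genes. For the others it was present in 9 of the 16 windows (56.2%), which belong to 12 genes. Genes with several windows were counted several times, so this is only a description over few windows. Neither motif was found for Birc5, G2e3, Nuf2, Nusap1 and Tacc3, which says only that these letters are not in their windows. All of these but G2e3 were called lower, and Tacc3 had the smallest adjusted p of the members. The stretches shown above therefore do not stand for every member called lower, and a link between motif and change was not tested.

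**Figure D1:**
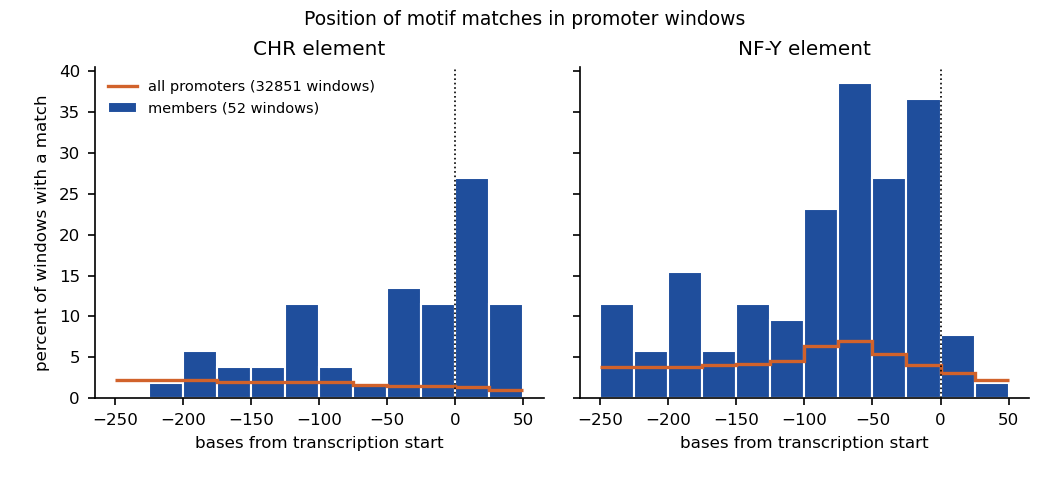
Percent of promoter windows with a motif match beginning in each 25-base bin, against the distance in bases from the transcription start, for the CHR (left) and the CCAAT box bound by NF-Y (right). Bars are the 52 member windows and the line is all 32851 windows; CHR matches of members were most frequent in the bin from the start to base 25 (26.9%, against 1.43% of all windows), and CCAAT matches between 75 and 50 bases before it (38.5%, against 6.99%).

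Libraries held between 12479443 and 16548002 estimated counts, which did not differ detectably between groups (two-sided exact permutation test, p = 0.4). Markers of cartilage were abundant, with Col2a1 (the main cartilage collagen) at a mean of 23979 ± 9798 (naive) and 63821 ± 27070 (DMM) normalised counts (SD, n = 4), and Comp at 8288 ± 1483 and 21121 ± 6380. Genes of marrow and bone were abundant too, so the label chondrocyte does not cover every cell in the samples: the alpha globin gene Hba-a2 had 79625 ± 25467 normalised counts in naive libraries, the neutrophil gene S100a9 39110 ± 8225 and the bone collagen gene Col1a1 137561 ± 42360. Naive library 2 had fewer genes with 10 or more counts (16770) than the other naive libraries (18276 to 18467), and counts of member calls are also given without it. Sums, ratios and the fold changes of single genes include it.

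To ask how the G2 and mitosis genes responded, DMM libraries were compared with naive libraries in a DESeq2 fit over all genes. Calls required a change of at least 1.5-fold with an adjusted p no greater than 0.05. In DMM libraries 40 of the 54 members were called lower and none higher, where 5.92% of all 17760 genes tested were called lower and 7.75% higher. With every fold change below 0, none was higher at an unadjusted p under 0.05 either, and edgeR and limma-voom called none higher. The adjusted p alone was 0.05 or less for 52 members, all lower, compared with 11.2% of all genes. The log2 fold changes of the members had a median of -0.72 and a range from -0.98 (Cdc25c) to -0.30 (Psrc1), while the median over all genes tested was -0.02. All 54 passed the filter on low counts, with mean normalised counts between 85.6 (Psrc1) and 26622 (Mki67). For 46 members every DMM library lay below every naive library, which held for 10.3% of all genes tested. Because these are bulk samples, fewer dividing cells and less of each transcript per cell cannot be told apart.

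**Figure D2:**
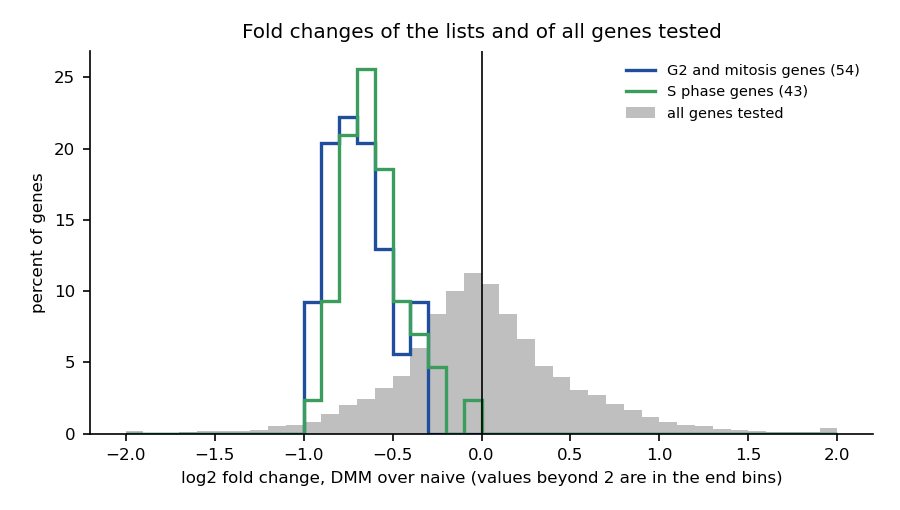
Percent of genes in each bin of the log2 fold change (DMM over naive, x axis, bins of 0.1) for all 17760 genes tested (grey bars), the 54 G2 and mitosis genes (blue line) and the 43 S phase genes (green line). Both lists lie to the left of 0, with medians of -0.72 and -0.62, and all genes centre on -0.02.

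Cdk1 and the proteins that regulate it had the largest median decrease of the 8 role groups, at -0.87, and 4 of the 5 were called lower. Cdk1, the kinase that drives entry into mitosis (chromosome 10, 69335146 to 69352938, GRCm38), had 958, 906, 809 and 602 normalised counts in naive libraries 1 to 4 and 342, 359, 494 and 483 in DMM libraries 1 to 4. The groups did not overlap, and the lowest DMM libraries were 1 and 2. Its log2 fold change was -0.96 (adjusted p = 6.24e-06 by DESeq2, SE 0.18), from group means of 819 ± 157 and 419 ± 80.1 (naive and DMM, SD, n = 4 each). Cdc25c, the phosphatase that removes inhibitory phosphates from Cdk1, had 156, 201, 138 and 154 normalised counts in naive libraries 1 to 4 and 71.3, 77.4, 78.2 and 101 in DMM libraries 1 to 4. All DMM libraries were again lower, with a log2 fold change of -0.98 (adjusted p = 1.78e-05 by DESeq2, SE 0.19), although 13.3% of the 31-base words of its transcripts also occur in other genes. Ccnb2 (cyclin B2) changed by -0.86 (adjusted p = 4.55e-05 by DESeq2, SE 0.18) and Cks2, a small subunit of the kinase, by -0.87 (adjusted p = 8.65e-05 by DESeq2, SE 0.19). Cks2 shares 31.7% of its words with the pseudogene Gm15452, so reads could have been divided between them. Its paralog Cks1b stayed under the fold threshold at -0.56 (adjusted p = 0.0231 by DESeq2, SE 0.19), and DMM library 4 (214) overlapped the naive range (213 to 303).

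Of the 9 genes for chromosome condensation and chromatin, 6 were called lower and the other 3 passed on adjusted p alone, with a median of -0.68. Mki67, which coats mitotic chromosomes and is the most abundant member, had 39095, 37015, 32993 and 27323 normalised counts in naive libraries 1 to 4 and 16089, 16164, 24216 and 20079 in DMM libraries 1 to 4. Naive libraries stood above all DMM libraries, with group means of 34106 ± 5183 and 19137 ± 3865 (naive and DMM, SD, n = 4 each) and a log2 fold change of -0.83 (adjusted p = 1.25e-05 by DESeq2, SE 0.16). Anp32e, a chaperone that removes the histone variant H2A.Z from chromatin, had 2265, 2283, 1975 and 1788 normalised counts in naive libraries 1 to 4 and 1050, 1198, 1489 and 1272 in DMM libraries 1 to 4. Its groups did not overlap either, and its log2 fold change was -0.73 (adjusted p = 4.89e-06 by DESeq2, SE 0.14). Top2a, which untangles sister chromatids, changed by -0.75 (adjusted p = 2.76e-05 by DESeq2, SE 0.15), with group means of 8172 ± 1085 and 4849 ± 881 (naive and DMM, SD, n = 4 each). The condensin subunits Smc4 and Ncapd2 changed by -0.68 and -0.66, and the chromatin protein Hmgb2 by -0.91, with 21.4% of its words shared with other genes. The smallest changes of this group belonged to general chromatin proteins. Cbx5 (heterochromatin protein HP1 alpha) had 2938, 2874, 2357 and 2384 normalised counts in naive libraries 1 to 4 and 1810, 1848, 2420 and 2183 in DMM libraries 1 to 4. DMM library 3 lay within the naive range, and the log2 fold change was -0.35 (adjusted p = 0.0402 by DESeq2, SE 0.13). Ctcf, an insulator protein that most cells need at all times, changed by -0.33 (adjusted p = 0.0127 by DESeq2, SE 0.11).

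At the centromere and kinetochore, 7 of 8 members were called lower, with a median of -0.69. Nuf2, a subunit of the Ndc80 complex that grips microtubules, had 877, 919, 892 and 727 normalised counts in naive libraries 1 to 4 and 401, 410, 588 and 524 in DMM libraries 1 to 4. Naive libraries were all above DMM libraries, and the log2 fold change was -0.83 (adjusted p = 4.32e-06 by DESeq2, SE 0.15). Its partner Ndc80 changed by -0.65 (adjusted p = 0.00103 by DESeq2, SE 0.16). Cenpf, a large kinetochore protein that accumulates in G2, had 5607, 5325, 4752 and 3807 normalised counts in naive libraries 1 to 4 and 2383, 2331, 3475 and 2952 in DMM libraries 1 to 4. The log2 fold change was -0.81 (adjusted p = 3.33e-05 by DESeq2, SE 0.17) with no overlap of the groups. The kinesin Cenpe changed by -0.75, and the checkpoint kinases Ttk and Bub1 by -0.73 and -0.60. The histone variant Cenpa, which marks centromeres, changed by -0.65 (adjusted p = 0.000558 by DESeq2, SE 0.16). Hjurp, the chaperone that deposits it, had 3163, 3333, 2804 and 2484 normalised counts in naive libraries 1 to 4 and 2293, 2220, 2420 and 2602 in DMM libraries 1 to 4. DMM library 4 was above naive library 4, and the log2 fold change was only -0.31 (adjusted p = 0.0442 by DESeq2, SE 0.12).

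All 3 members of the chromosomal passenger complex, which corrects wrong attachments, were called lower. Aurkb, its kinase, had 600, 673, 514 and 438 normalised counts in naive libraries 1 to 4 and 277, 343, 338 and 310 in DMM libraries 1 to 4. Cdca8 (borealin), which targets the complex to centromeres, had 960, 1027, 900 and 708 normalised counts in naive libraries 1 to 4 and 396, 432, 612 and 525 in DMM libraries 1 to 4. In both genes the groups did not overlap, and the log2 fold changes were -0.81 (adjusted p = 1.02e-05 by DESeq2, SE 0.16) for Aurkb and -0.87 (adjusted p = 1.3e-05 by DESeq2, SE 0.17) for Cdca8. Birc5 (survivin) changed by -0.72 (adjusted p = 0.000121 by DESeq2, SE 0.16).

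The spindle and microtubule genes were the largest group, with 12 of 16 called lower, 3 passing on adjusted p alone and a median of -0.72. Tacc3, which stabilises spindle microtubules, had the smallest adjusted p of the 54 members. It had 1183, 1165, 915 and 867 normalised counts in naive libraries 1 to 4 and 438, 488, 598 and 645 in DMM libraries 1 to 4. No DMM library reached the naive range, and the log2 fold change was -0.93 (adjusted p = 1.05e-06 by DESeq2, SE 0.16), from group means of 1033 ± 165 and 542 ± 95.8 (naive and DMM, SD, n = 4 each). Tpx2, the spindle assembly factor that activates Aurora A, had 2157, 2198, 1872 and 1647 normalised counts in naive libraries 1 to 4 and 928, 955, 1316 and 1253 in DMM libraries 1 to 4. DMM libraries were again all lower, with a change of -0.82 (adjusted p = 4.78e-06 by DESeq2, SE 0.15). Aurka (Aurora A) itself changed by -0.75 (adjusted p = 0.00135 by DESeq2, SE 0.19), although naive library 4 (334) lay below DMM library 3 (343). The motor Kif11, which pushes the spindle poles apart, changed by -0.73, the microtubule depolymerase Kif2c by -0.69, Nusap1 by -0.86, Dlgap5 by -0.78, Hmmr by -0.74, Ckap2 by -0.76, Nek2 by -0.66 and Ckap2l by -0.60. The tubulin gene Tubb4b changed by -0.71, but 53.0% of its words also occur elsewhere, mostly in the pseudogene Tubb4b-ps1, so its counts are uncertain. Ckap5, the microtubule polymerase that works with Tacc3, had a log2 fold change of -0.45 (adjusted p = 0.00321 by DESeq2, SE 0.13), and its difference from Tacc3 was not tested. Psrc1, a microtubule-binding protein and the least abundant member, had 95, 105, 96.3 and 82.8 normalised counts in naive libraries 1 to 4 and 76.3, 60.2, 92.2 and 76.7 in DMM libraries 1 to 4. The groups overlapped, and its log2 fold change of -0.30 (adjusted p = 0.305 by DESeq2, SE 0.20) did not pass the test. Gtse1 (-0.49) and Jpt1 (-0.54) passed on adjusted p alone.

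Genes for cytokinesis, the final cutting of the cell, were called lower in 4 of 5 cases, with a median of -0.62. Anln (anillin), a scaffold of the contractile ring, had 1420, 1478, 1258 and 1025 normalised counts in naive libraries 1 to 4 and 696, 669, 830 and 932 in DMM libraries 1 to 4. Ect2, the exchange factor that activates RhoA at the division plane, had 834, 762, 725 and 553 normalised counts in naive libraries 1 to 4 and 399, 383, 530 and 476 in DMM libraries 1 to 4. Groups did not overlap for either gene, with log2 fold changes of -0.73 (adjusted p = 7.49e-05 by DESeq2, SE 0.16) for Anln and -0.68 (adjusted p = 0.000417 by DESeq2, SE 0.16) for Ect2. The motors Kif23 and Kif20b changed by -0.60 and -0.62. Gas2l3, a linker of actin and microtubules, passed on adjusted p alone at -0.54 (adjusted p = 0.00149 by DESeq2, SE 0.14).

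In the group of anaphase promotion and ubiquitin, 3 of 5 genes were called lower. Cdc20, the activator of the anaphase-promoting complex, had 690, 790, 626 and 421 normalised counts in naive libraries 1 to 4 and 279, 319, 411 and 330 in DMM libraries 1 to 4. Cdca3, an F-box-like protein needed for entry into mitosis, had 1119, 1224, 943 and 717 normalised counts in naive libraries 1 to 4 and 523, 475, 652 and 527 in DMM libraries 1 to 4. Both were lower in every DMM library, with log2 fold changes of -0.92 (adjusted p = 9.21e-05 by DESeq2, SE 0.20) for Cdc20 and -0.88 (adjusted p = 2.29e-05 by DESeq2, SE 0.18) for Cdca3. Cdc20 shares 26.7% of its words with other genes and Ube2c, the ubiquitin-conjugating enzyme of the complex, 25.3%. Ube2c changed by -0.81 (adjusted p = 0.00028 by DESeq2, SE 0.19). The ubiquitin ligase G2e3 had 493, 460, 464 and 471 normalised counts in naive libraries 1 to 4 and 330, 312, 389 and 426 in DMM libraries 1 to 4. Its naive libraries lay close together and above all DMM libraries, but the change was small, -0.37 (adjusted p = 0.0243 by DESeq2, SE 0.13). Pimreg had 113, 146, 109 and 80.5 normalised counts in naive libraries 1 to 4 and 73, 93.5, 78.2 and 76.7 in DMM libraries 1 to 4. Its groups overlapped, and a log2 fold change of -0.48 (adjusted p = 0.0962 by DESeq2, SE 0.22) did not pass.

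Of the 3 genes of the nuclear envelope and transport, only Lbr was called lower, and Tmpo and Rangap1 passed on adjusted p alone. Lbr, the lamin B receptor, had 4282, 4392, 3596 and 3051 normalised counts in naive libraries 1 to 4 and 2002, 2370, 2640 and 2550 in DMM libraries 1 to 4. Tmpo, a lamina-associated protein, had 4510, 4201, 3576 and 3305 normalised counts in naive libraries 1 to 4 and 2516, 2484, 2872 and 2901 in DMM libraries 1 to 4. Groups did not overlap for either gene, and the log2 fold changes were -0.68 (adjusted p = 6.76e-05 by DESeq2, SE 0.14) for Lbr and -0.53 (adjusted p = 0.000371 by DESeq2, SE 0.13) for Tmpo. Rangap1, which builds the Ran gradient for nuclear transport and spindle assembly, changed by -0.54 (adjusted p = 0.00333 by DESeq2, SE 0.15).

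**Figure D3:**
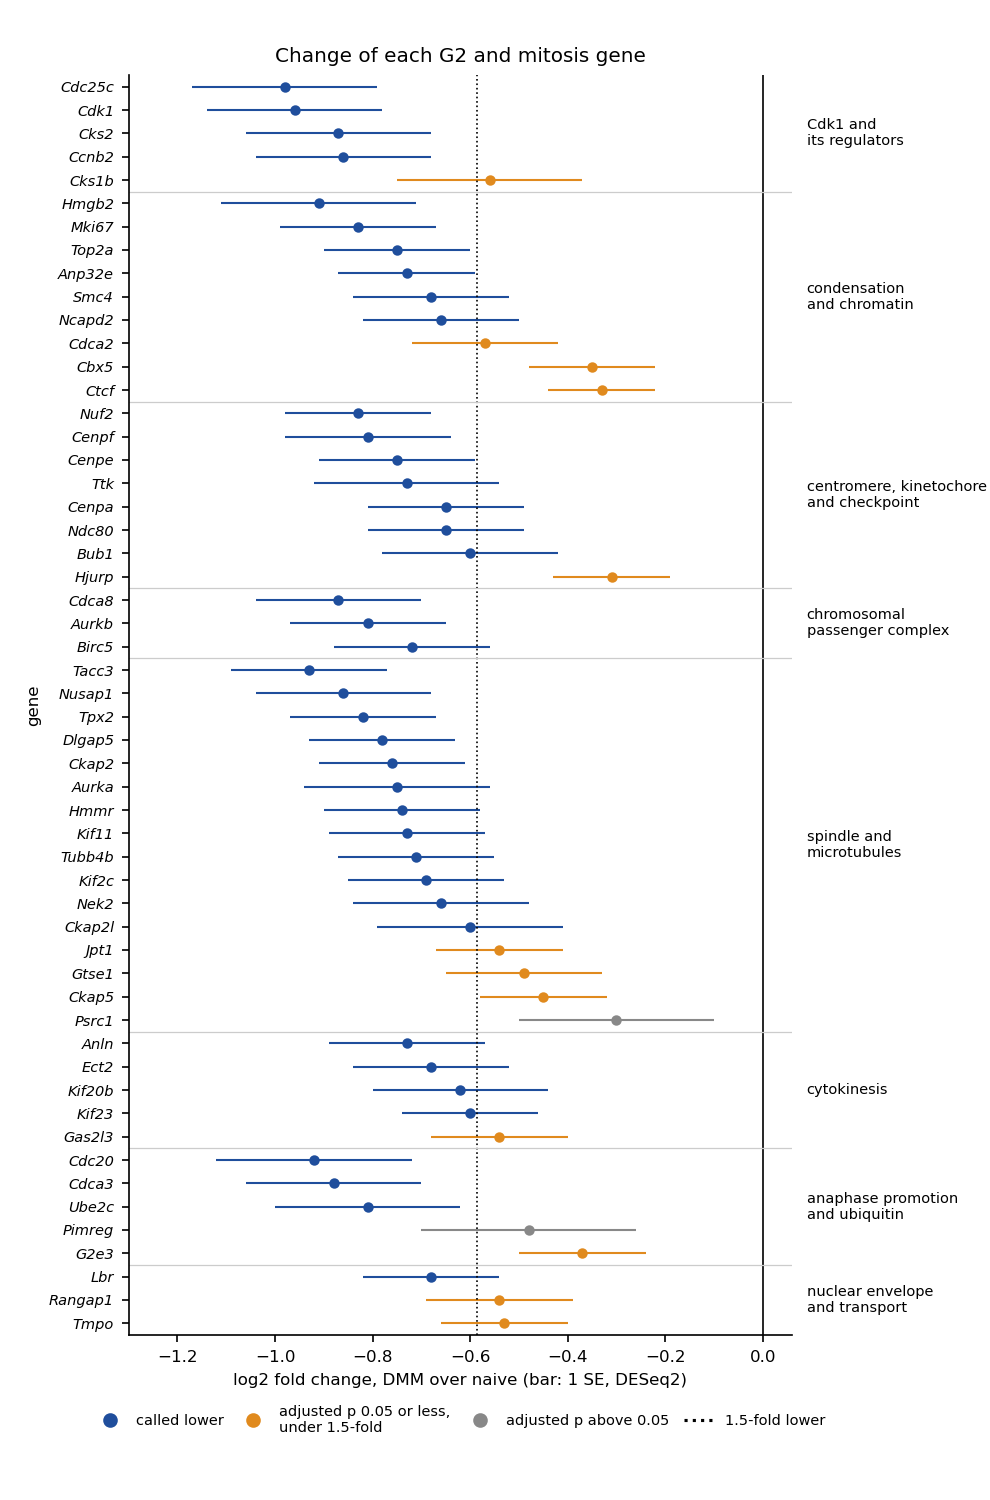
Log2 fold change (DMM over naive, x axis) of each of the 54 members (y axis), with bars of 1 SE from DESeq2, ordered by role and then by size. Blue points are the 40 members called lower, orange points the 12 with an adjusted p of 0.05 or less but under 1.5-fold, and grey points the 2 above 0.05 (Pimreg and Psrc1); all points lie left of 0.

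Levels were set side by side per kilobase of exon, on the scale of mean normalised counts. Mki67 (3390 in naive, 1902 in DMM), Hmgb2 (1706 and 909) and Tubb4b (1694 and 1033) were the highest. Psrc1 (28.2 and 22.7) and Cdc25c (33.0 and 16.7) were the lowest, so the smallest and the largest of the members' changes belonged to genes of low level. In all, 9 members share 10% or more of their words with other genes (Tubb4b, Cks2, Cdc20, Ube2c, Hmgb2, Cks1b, Cdc25c, Ndc80 and Ckap2), and their counts are less certain for that reason. The spread among mice was alike in both groups, with a median coefficient of variation over the members of 16.1% in naive and 15.5% in DMM libraries.

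Differences between mice of the same group ran alike across the members. Relative to the naive mean of each gene, the median over the 54 members on the log2 scale was 0.18, 0.17, -0.04 and -0.30 in naive libraries 1 to 4 and -0.93, -0.83, -0.48 and -0.57 in DMM libraries 1 to 4. Naive library 1 or 2 was the highest of all 8 libraries for every member (27 each), and naive library 4 was the lowest naive library for 51. DMM library 1 was the lowest of all 8 for 39 members and DMM library 2 for 14. Summed over the members, normalised counts were 134447, 130981, 113938 and 95893 in naive libraries and 61564, 63719, 85425 and 77493 in DMM libraries. The summed level in DMM was 60.6% of that in naive libraries (72050 ± 11371 against 118815 ± 17716, SD, n = 4). Mki67 alone gave 34106 of the naive and 19137 of the DMM mean. No test was made on the sum, and all values of a library share its size factor.

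**Figure D4:**
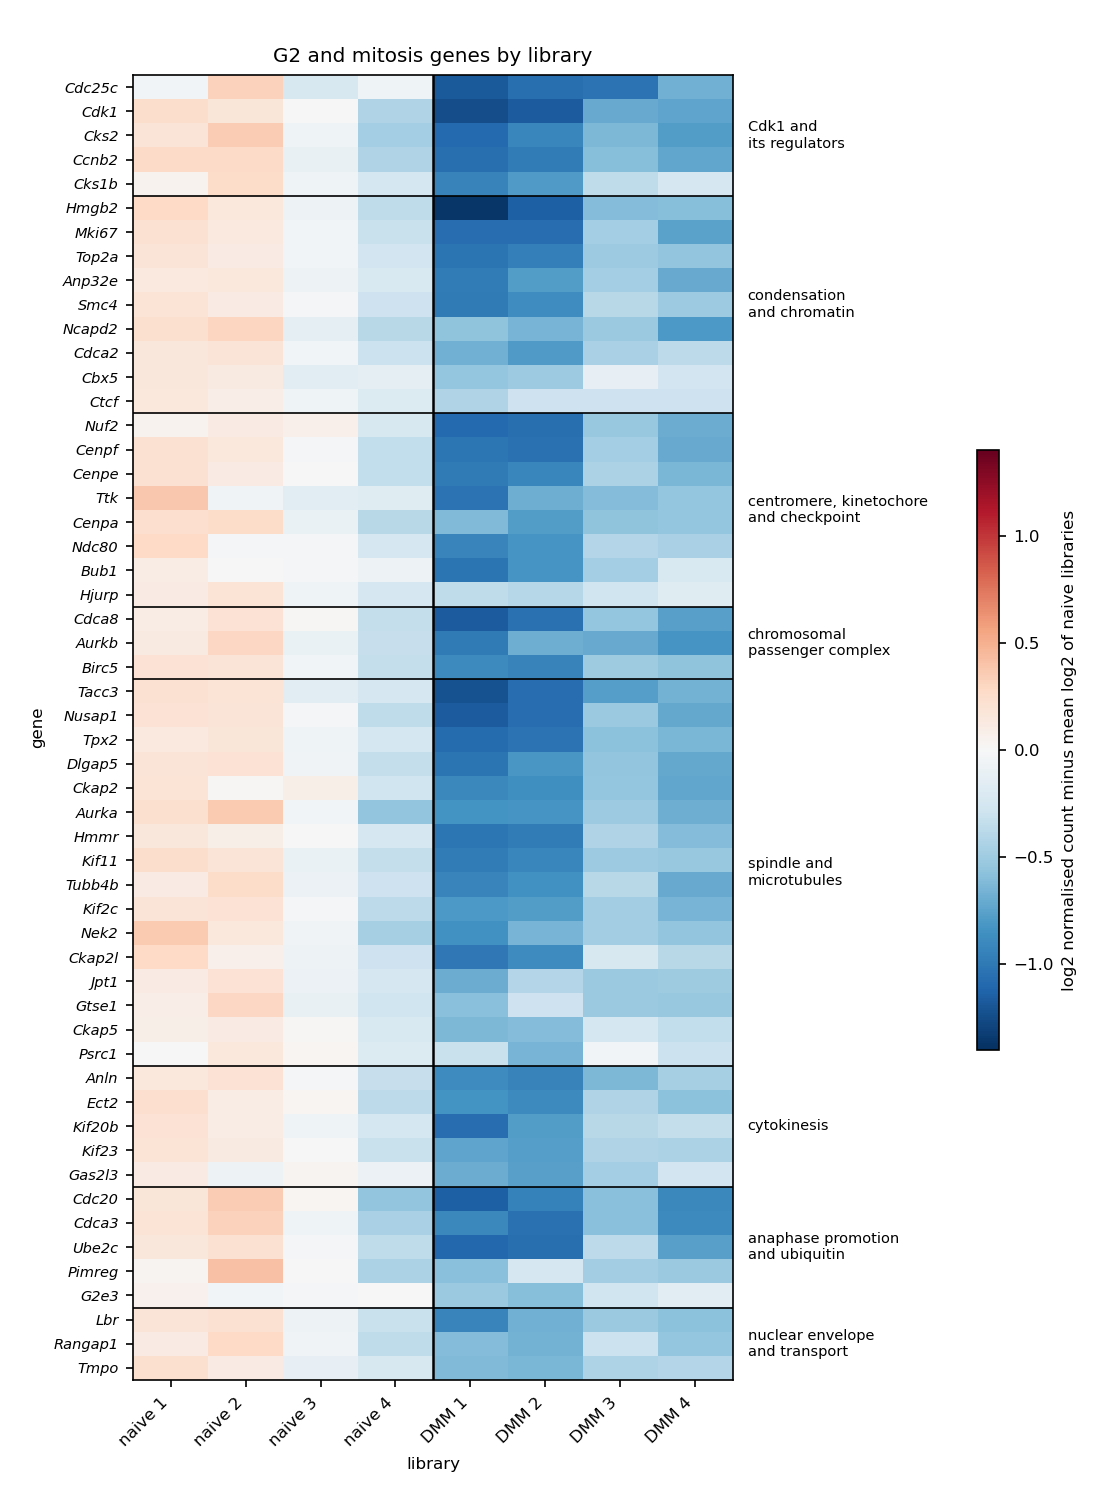
Log2 normalised count of each member (rows, grouped by role) in each library (columns), after subtracting the mean log2 value of the 4 naive libraries; red is above and blue below that mean. DMM libraries 1 and 2 are the darkest blue columns (medians -0.93 and -0.83), DMM libraries 3 and 4 are intermediate (-0.48 and -0.57), and naive library 4 is the lowest naive column (-0.30).

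Other genes of the same machinery were examined through a list of 89 genes chosen for their roles, of which 88 were found and tested. The list was chosen with earlier results of these data known, so it is not independent of them. In DMM libraries 53 were called lower and none higher, with a median log2 fold change of -0.65. Total count scaling gave 20 in place of 53. Cyclin B1 (Ccnb1) changed by -0.84 (adjusted p = 4.42e-05 by DESeq2, SE 0.17), cyclin A2 (Ccna2) by -0.73 (adjusted p = 0.000185 by DESeq2, SE 0.16) and Polo-like kinase 1 (Plk1) by -0.76 (adjusted p = 6.89e-05 by DESeq2, SE 0.16). The smallest adjusted p values were those of the motor Kif4, at -0.91 (adjusted p = 3.17e-07 by DESeq2, SE 0.15), Arhgap11a, at -0.77 (adjusted p = 3.49e-07 by DESeq2, SE 0.13), and the spindle protein Spag5, at -0.74 (adjusted p = 2.72e-06 by DESeq2, SE 0.14). By role, 18 of 27 kinetochore genes, 10 of 12 spindle genes and 8 of 10 cyclins, kinases and phosphatases were called lower. Among the transcription factors and DREAM subunits, 3 of 8 were called lower. Mybl2 (B-MYB), which binds at the CHR with MuvB, changed by -0.81 (adjusted p = 9.14e-05 by DESeq2, SE 0.18). Foxm1, the other activator of G2 genes there, had a log2 fold change of -0.39 (adjusted p = 0.0524 by DESeq2, SE 0.16) and narrowly did not pass. Its difference from Mybl2 was not tested. Only 2 of 10 genes of the anaphase-promoting complex and its regulators were called lower, with a median of -0.13. The core subunits Anapc1, Anapc2, Anapc4, Anapc5, Cdc16, Cdc23 and Cdc27, named after their values were seen, all had an adjusted p above 0.05, with log2 fold changes from -0.20 (Anapc5) to 0.07 (Anapc2). They stand beside the activator Cdc20 (-0.92) and the enzyme Ube2c (-0.81); the difference between them was not tested.

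Genes of S phase, when DNA is replicated, were lower as well, with 29 of 43 called lower, none higher and a median of -0.62. Under total count scaling 7 of them were called lower. The smallest adjusted p values were those of the helicase subunit Mcm5, at -0.82 (adjusted p = 2.43e-06 by DESeq2, SE 0.15), the ribonucleotide reductase subunit Rrm2, at -0.85 (adjusted p = 1.92e-05 by DESeq2, SE 0.17), and Cdca7, at -0.76 (adjusted p = 3.19e-05 by DESeq2, SE 0.16). Their summed normalised counts in DMM were 63.6% of those in naive libraries, compared with 60.6% for the G2 and mitosis genes, and whether the lists differ was not tested.

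Most markers of granulocytes and red cells were called lower, like the members. Of 8 early granulocyte genes (Mpo, Elane and others, which mark dividing precursors) 7 were called lower, with a median of -1.01, and their summed normalised counts ranged from 24898 to 29431 in naive and from 9398 to 20328 in DMM libraries. Mpo changed by -1.07 (adjusted p = 6.14e-05 by DESeq2, SE 0.23) and Elane by -0.97 (adjusted p = 0.000238 by DESeq2, SE 0.22). Of 10 late neutrophil genes 8 were called lower (median -0.80), with sums of 111621 to 177964 in naive and 51741 to 108663 in DMM libraries. Ngp changed by -0.88 (adjusted p = 0.00111 by DESeq2, SE 0.22) and S100a9 by -0.84 (adjusted p = 0.00244 by DESeq2, SE 0.23). Of 13 erythroid genes 11 were called lower (median -0.96), with overlapping sums of 164722 to 317147 and 85355 to 181236. Hba-a2 changed by -1.11 (adjusted p = 0.0202 by DESeq2, SE 0.38), and Hbb-bs, at -0.95 (adjusted p = 0.0928 by DESeq2, SE 0.43), did not pass. No marker of these 3 lists was at 0. Like the members, all 3 lists had their lowest sums in DMM libraries 1 and 2. In the erythroid list, however, DMM library 4 (92708) was close to DMM libraries 1 and 2 (91516 and 85355), and only DMM library 3 (181236) stood apart. The early granulocyte sum was the lowest of the naive group in library 1 (24898), where the members were highest (134447). Its highest DMM sum was in library 4 (20328), whereas that of the members was in library 3 (85425). The late neutrophil and erythroid sums, like those of the members, were lowest among naive libraries in library 4 and highest among DMM libraries in library 3.

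No gene of the remaining blood and vessel lists was called lower. None of 12 early B cell genes was called (median 0.44), with sums of 4063 to 6434 in naive and 4905 to 10118 in DMM libraries; the log2 fold change was 0.43 (adjusted p = 0.0198 by DESeq2, SE 0.15) for Ebf1 and 0.27 (adjusted p = 0.572 by DESeq2, SE 0.29) for Pax5. Their highest sums were in DMM libraries 1 and 2 (8777 and 10118), where the members were lowest. Of 6 blood progenitor genes none was called lower and 1 was higher (sums 3875 to 4616 and 3393 to 3719, lower in DMM libraries with no overlap; Kit -0.42, Myb -0.34). No macrophage gene of 7 was called (6585 to 8073 and 6061 to 7629; Csf1r 0.20, Mrc1 -0.19). Among endothelial genes 2 of 6 were called higher (3474 to 4024 and 4462 to 5068; Pecam1 -0.03, Cdh5 0.63).

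Cartilage and bone genes that were called were higher. Of 13 chondrocyte genes 6 were called higher and none lower (median 0.77), with sums of 49106 to 85904 in naive and 108772 to 188582 in DMM libraries, and Col2a1 changed by 1.41 (adjusted p = 0.00703 by DESeq2, SE 0.42) and Comp by 1.35 (adjusted p = 6.4e-09 by DESeq2, SE 0.20). The other 7 did not pass, and 2 of them, Col9a1 (-0.36) and Matn3 (-0.29), had a fold change below 0. Of the 6 tested genes of hypertrophic and growth plate chondrocytes 4 were called higher (5068 to 8757 and 10486 to 18688; Col10a1 1.12, Pth1r 1.19), and Matn1 was too low to be tested. Ucma pointed the other way, at -0.58 (adjusted p = 0.0589 by DESeq2, SE 0.24), and did not pass. Of 8 osteoblast genes 7 were called higher (127781 to 219051 and 333904 to 422355; Col1a1 1.23, Ibsp 1.43).

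Set against these sums within each library, the members gave different pictures. Per normalised count of the early granulocyte list, the summed members were at 3.63 to 5.40 in naive and 3.81 to 6.55 in DMM libraries, ranges that overlap. Per count of the late neutrophil list they were at 0.696 to 0.903 and 0.742 to 1.19, and per count of the erythroid list at 0.413 to 0.607 and 0.471 to 0.836, overlapping in both cases. Per count of the chondrocyte list they were at 1.52 to 2.74 in naive and 0.411 to 0.574 in DMM libraries, with no overlap. The ranges also did not overlap, and were lower in DMM libraries, per count of the early B cell (20.4 to 23.6 and 6.30 to 17.0), macrophage (13.6 to 19.3 and 8.35 to 12.8), endothelial (23.8 to 37.7 and 12.5 to 19.1), osteoblast (0.598 to 1.05 and 0.146 to 0.232) and hypertrophic chondrocyte lists (13 to 26.5 and 3.69 to 5.87). Per count of the blood progenitor list they overlapped (24.7 to 30.7 and 16.6 to 25.2). Some of these sums rest largely on a single gene. Of the naive means, Col1a1 gave 137561 of 159308 for the osteoblast list and Col10a1 gave 5779 of 7195 for the hypertrophic chondrocyte list. Mpo gave 19389 of 27507 for the early granulocyte list. Ratios to these lists therefore mostly follow that gene. The part of any of these cell types in the members' decrease was not tested.

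**Figure D5:**
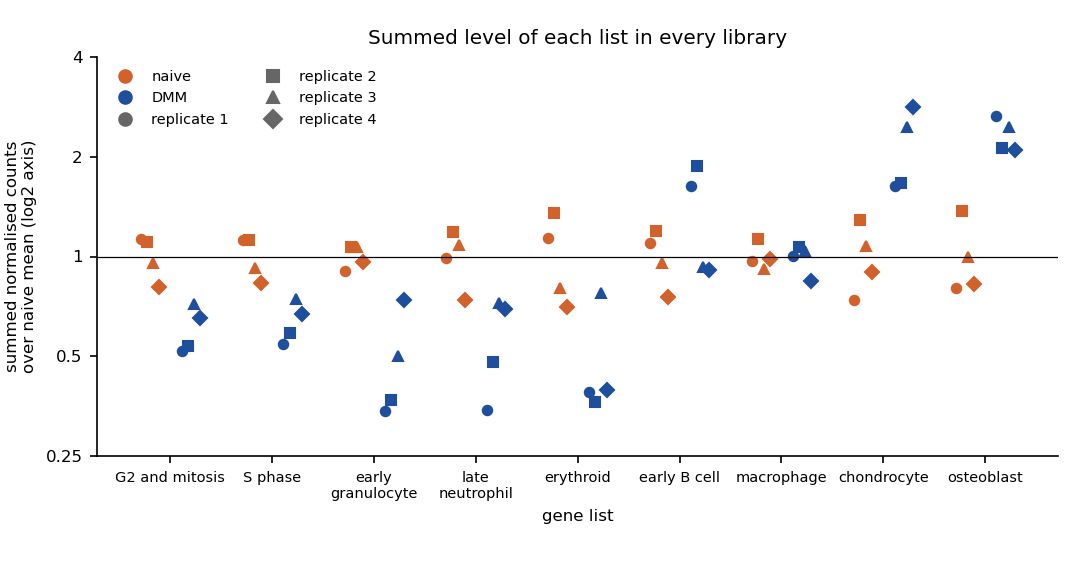
Summed normalised counts of each list (x axis) in every library, divided by the mean of the 4 naive libraries (y axis, log2 scale); orange is naive, blue is DMM and the symbol gives the replicate. The G2 and mitosis genes, the S phase genes and the early granulocyte, late neutrophil and erythroid markers lie below 1 in all 4 DMM libraries, and the chondrocyte and osteoblast markers above 1.

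The direction of the members' change was the same in every fit that was run, and the number of calls depended on the scaling. Scaling by the total count left 20 of the 40 members called lower, with a median log2 fold change of -0.56. A single identifier without a symbol, ENSMUSG00000119584, held between 10.1% and 17.9% of all counts in naive and between 4.31% and 8.65% in DMM libraries. Scaling by the total count without that identifier, an alternative chosen after seeing the data, gave 37 calls and a median of -0.69. Under total count scaling the median of all genes averaging 10 or more normalised counts moved from -0.02 to 0.14, and 2030 genes were called higher and 489 lower, compared with 1377 and 1052 in the fit reported here. Leaving out naive library 1 gave 31 calls, without Bub1, Cenpa, Ckap2l, Kif20b, Kif23, Ncapd2, Ndc80, Nek2 and Ttk. Leaving out naive library 2 gave 36, DMM library 1 gave 35 and DMM library 2 gave 36, and Ckap2l and Kif23 lost their call each time.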

How the data were processed

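The deposited table holds estimated counts per gene, which the authors made by trimming reads with Trimmomatic, quantifying them with kallisto and summing transcripts with tximport. The labels name the GRCh38 build and a NEB kit, whereas the methods name GRCm38 and a SMART-Seq kit. The gene identifiers of the count table are mouse identifiers, so the counts were not made against the human build. The kit and the mouse build were not resolved further, and strand use was not given in the sources used here. Of the values, 39.2% were not whole, and estimated counts were rounded before testing. Symbols and coordinates are from GENCODE vM21 (GRCm38).

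Normalised counts are estimated counts divided by DESeq2 size factors. DESeq2 1.42.0 (R 4.3.3) was fitted to all 8 libraries (Wald test, no covariates, Benjamini-Hochberg adjustment over 17760 genes), and the test was first tested on simulated data. Alternatives used edgeR 4.0.16, limma-voom 3.58.1, other scalings and filters, a replicate block and leaving out each library.

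The members, lists and motifs were chosen with earlier results of these data known. Values in every library are given for the 2 members of each role with the smallest adjusted p and the 5 with an adjusted p closest to 1. Other genes named are Ccnb1, Ccna2, Plk1, Foxm1 and Mybl2, the 3 with the smallest adjusted p of the same list and of the S phase list, and the 2 highest of each marker list. Ucma, Col9a1 and Matn3 were named after their values were seen, as the tested genes of their marker lists with a fold change below 0. Lin54 and Ahsp had no match. The share of 31-base words of a gene's transcripts that also occur in other genes marks reads that could be divided. Libraries of a group came from separate mice and differed by more than counting noise (lowest chi-square per degree of freedom 8.09).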

Additional observations from a re-analysis of the deposited data

Results flagged for a closer look

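Naive library 2 had 16770 genes with 10 or more counts, far from the other naive libraries (18276 to 18467), with a gap of 0.887 of the range of the group. This was 1 of 48 groups of 4 libraries examined, where chance flags about 2.4. Without this library 36 members were called lower and none higher.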

How the results depend on the processing

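Of the 40 members called lower, 31 kept their call whichever of the 8 libraries was left out, and 20 in every setting, total count scaling included. No member had a fold change above 0 in any setting, and the median over members lay between -0.80 and -0.56. edgeR, TMM factors and total counts without the most abundant identifier (chosen after seeing the data) each gave 37 calls, and limma-voom gave 39. Total count scaling gave 20 for members, 20 for the other G2 and mitosis genes (53 in the reported fit) and 7 for S phase genes (29). It moved the median of all genes from -0.02 to 0.14 and the share of called genes that were higher from 56.7% to 80.6%. Without the fold threshold 4010 genes were called in place of 2429, and 52 members. Leaving out each library gave 31 to 46 calls for members, 41 to 63 for the other G2 and mitosis genes, 20 to 33 for S phase genes and 1858 to 2842 for all genes, and none of these gave a member called higher. Calls were lost without naive library 1 (9 members), naive library 2 (Cenpa, Ckap2l, Kif23 and Ncapd2), DMM library 1 (Bub1, Ckap2l, Kif20b, Kif23 and Ndc80) and DMM library 2 (Bub1, Ckap2l, Kif20b and Kif23).

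Libraries share replicate numbers across groups, but deviations of same-numbered libraries correlated at only 0.05, 0.09, -0.17 and 0.13. These values over many genes cannot exclude a shared batch that affects some of them. With the replicate block no member gained or lost a call (40 lower), and 2081 genes were called in all, 50 of the other G2 and mitosis genes and 27 of the S phase genes. Across single members and 16 settings, the fit without a fold threshold left out, 798 calls were unchanged, 52 were lost, 14 gained and 0 reversed. With 4 mice a group, members near the threshold, such as Kif23 and Bub1, cannot be placed firmly on either side.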
